A study of Mus musculus with 8 samples.

Results

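The oligodendrocyte nuclei of the paraflocculus and flocculus (PF/F), paired lobules of the cerebellum, were those that carry the cell type label Oligodendrocyte in the authors' annotation. There were 1624 of them among 48237 annotated PF/F nuclei, or 3.37%. Single-nucleus RNA sequencing had been run on the PF/F of Tbx1+/- mice, which carry 1 functional copy of the transcription factor gene Tbx1, and of matched WT littermates, at postnatal day 5.5. Each genotype had 2 libraries, 1 from each of 2 batches, and each library pooled the tissue of 5 mice, of which both sexes were used in the study. The libraries were therefore the replicates, p-values describe at most the spread between pools and not between mice, and nuclei of 1 library are not independent samples. Values are numbers of unique molecular identifiers (UMIs), and a level is given in UMIs per 1000000 (CPM) of the nuclei summed.

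Oligodendrocyte precursor cells (OPCs) divide and spread through the postnatal brain. Some leave the cell cycle, pass through a short premyelinating stage, and become the cells that wrap axons in myelin. Transcription factors of the Olig and SoxE families keep the lineage's identity throughout, while receptors such as PDGFRα mark the precursors and structural proteins such as myelin basic protein mark the myelinating cells. In the cerebellum, myelin forms mostly after birth.

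WT replicate 1 held 486 oligodendrocyte nuclei and 1918787 of their UMIs. WT replicate 2 held 282 and 1268256, Tbx1+/- replicate 1 held 414 and 1349867, and Tbx1+/- replicate 2 held 442 and 2017719. The median nucleus had 2960 to 3990.5 UMIs, depending on the library. Pairs of libraries shared 30 to 60 barcodes among all annotated nuclei and 0 among oligodendrocytes. The median ratio of the authors' UMIs corrected for free RNA to the deposited UMIs was 0.754 to 0.819 in oligodendrocytes, and the deposited, uncorrected counts were used here. No step that removes doublets is described for these data.

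The label matched the genes that define the lineage. Sox10, a SoxE factor required for oligodendrocyte differentiation (ENSMUSG00000033006, chr15:79154908-79165240 in GRCm38), was at 488 and 543 CPM in the WT libraries and at 494 and 526 CPM in the Tbx1+/- libraries. Its level in oligodendrocytes, 513 ± 26.1 CPM (SD, n = 4), was 30.5 times that of the next type, immune cells, at 16.8 ± 13.1 CPM (SD, n = 4). Olig2, the basic helix-loop-helix factor of the lineage, was at 127 ± 19.4 CPM (SD, n = 4) and 8.65 times as high as in astroglia. Its partner Olig1 was highest in oligodendrocytes in 3 of 4 libraries, Tbx1+/- replicate 1 being the lowest of the 4 in oligodendrocytes at 32.6 CPM. Sox6, a repressor that holds precursors back from differentiation, was at 2165 and 3283 CPM in the WT and 2529 and 2787 CPM in the Tbx1+/- libraries, 4.3 times its mean in early rhombic lip cells (RL.early). Since the type had been defined by clustering on the same counts, oligodendrocytes are described against the 15 other types with no test.

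Of the 17 lineage transcription factors listed, 8 were highest in oligodendrocytes in all 4 libraries. Among all 8009 genes of at least 20 CPM in oligodendrocytes, 216 were, which is 2.7%. The factors that stood furthest above the other types were, after Sox10, Zfp488 (20.1 times the next type), a zinc-finger repressor that promotes differentiation, and Olig2. Nkx2-2 and Sox8 were 4.43 and 3.63 times as high as in astroglia. Nfia and Nfib were higher in other types, most of all in granule neuron progenitors (GNPs).

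The OPC list held 13 genes, of which 7 were highest in oligodendrocytes in all 4 libraries. Tnr, the extracellular matrix glycoprotein tenascin-R, was at 2741 ± 557 CPM (SD, n = 4), 14.5 times its level in the next type. Pdgfra, which encodes the mitogen receptor of precursors, was at 474 and 424 CPM in the WT and at 630 and 407 CPM in the Tbx1+/- libraries, only 1.34 times its level of 360 ± 42.9 CPM (SD, n = 4) in meningeal cells. Cspg4, the NG2 proteoglycan shared by precursors and pericytes, was at 96.4 ± 15.4 CPM (SD, n = 4) against 336 ± 130 CPM in pericytes. Both precursor markers were thus well measured in oligodendrocytes without being particular to them among the cells of this tissue.

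The premyelinating list was the most specific. Of its 13 genes, 11 were highest in oligodendrocytes in all 4 libraries. Enpp6, a choline-specific phosphodiesterase of newly formed oligodendrocytes, was at 270 and 298 CPM in the WT and 263 and 373 CPM in the Tbx1+/- libraries, 44.4 times its level in the next type. Neu4, a sialidase, stood 31.7 times above the next type. Bcas1, a marker of cells that have begun to form myelin, was at 1251 ± 169 CPM (SD, n = 4), 18.8 times the next type. Gpr17, a receptor expressed in passing between precursor and myelinating cell, was within 150 to 165 CPM in all 4 libraries and 12.4 times above endothelial cells.

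Of the 20 myelin genes, 7 were highest in oligodendrocytes in all 4 libraries. Mbp was 16.6 times and Mag, a myelin adhesion molecule, 15 times as high as in immune cells, the next type for each. Mbp was at 744 and 1090 CPM in the WT and at 749 and 1302 CPM in the Tbx1+/- libraries, and the higher value of each genotype came from its second batch. Mobp spread most, from 3.15 CPM in WT replicate 2 to 66.9 CPM in Tbx1+/- replicate 2. Genes of compact, mature myelin were scarce. Mal was at 0 in 2 libraries and at 0.639 CPM on average, Opalin had UMIs in 1 library only, and Mog, at 21.8 ± 8.91 CPM (SD, n = 4), was lower than in GABA.interneuron nuclei at 30.2 ± 8.92 CPM (SD, n = 4).

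**Figure D1:**
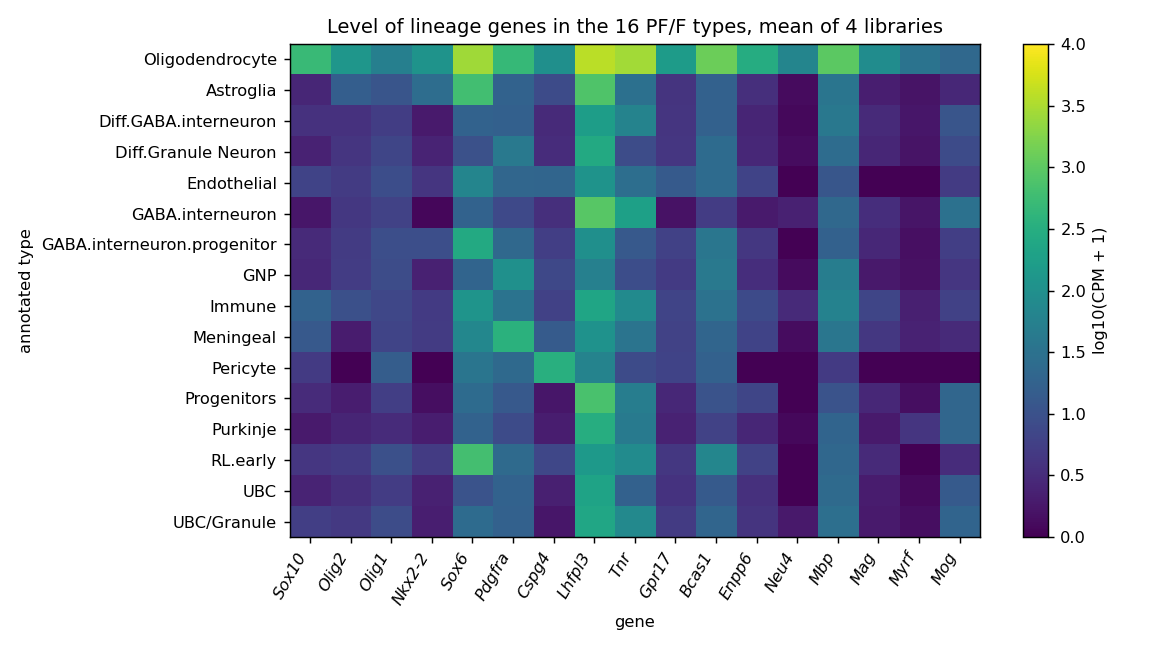
Mean level over 4 libraries, as log10(CPM + 1) in colour, of 17 lineage genes (columns) in the 16 annotated PF/F types (rows, oligodendrocytes on top). Sox10, Enpp6, Neu4 and Mag are bright in the top row only, whereas Pdgfra is shared with meningeal cells, Cspg4 with pericytes and Mog with interneurons.

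The sequences before the starts of 4 genes of the premyelinating and myelin lists are shown, Enpp6, Neu4 and Mag for their contrast with the other types and Mobp for its number of SOX-type words, which was noticed after the search. Each is the 250 bases before a RefSeq gene start in GRCm38.p6, 5′ to 3′ on the gene's strand, with the words ACAAAG and ACAATG of the SOX family, on either strand, in capitals.
Enpp6, chr8:46986637-46986886, plus strand: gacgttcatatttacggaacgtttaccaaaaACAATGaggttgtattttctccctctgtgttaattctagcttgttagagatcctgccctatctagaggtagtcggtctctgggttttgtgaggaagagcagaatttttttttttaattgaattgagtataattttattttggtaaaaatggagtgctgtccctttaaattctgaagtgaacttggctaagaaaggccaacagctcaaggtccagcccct
Neu4, chr1:94020243-94020492, plus strand: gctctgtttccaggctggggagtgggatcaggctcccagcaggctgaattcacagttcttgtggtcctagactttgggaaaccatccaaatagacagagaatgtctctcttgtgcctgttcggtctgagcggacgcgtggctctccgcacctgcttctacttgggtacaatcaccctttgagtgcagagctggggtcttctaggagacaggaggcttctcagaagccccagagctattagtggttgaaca
Mag, chr7:30914864-30915113, minus strand: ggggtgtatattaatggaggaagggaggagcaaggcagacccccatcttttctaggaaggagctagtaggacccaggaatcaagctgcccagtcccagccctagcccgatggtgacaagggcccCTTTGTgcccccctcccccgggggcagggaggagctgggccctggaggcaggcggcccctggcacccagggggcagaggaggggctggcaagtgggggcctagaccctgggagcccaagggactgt
Mobp, chr9:120149492-120149741, plus strand: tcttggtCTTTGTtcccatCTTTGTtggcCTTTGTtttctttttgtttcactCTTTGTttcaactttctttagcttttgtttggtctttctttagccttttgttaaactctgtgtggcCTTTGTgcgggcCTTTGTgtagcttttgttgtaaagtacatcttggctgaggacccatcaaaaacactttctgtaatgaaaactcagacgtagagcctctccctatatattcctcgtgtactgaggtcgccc
Of the 33 genes of both lists, 26 were in the RefSeq table, and 11 of them (42.3%) held at least 1 such word, as did 28.2% of all 27025 genes in it. The shares were 22.2% for the OPC list (2 of 9 matched genes) and 72.7% for the lineage transcription factors (8 of 11). Some genes have several starts, and the shares depended on the unit. Counted per start, they were 42.4% of 33 for the premyelinating and myelin lists and 42.9% of 14 for the OPC list. They were 58.3% of 24 for the factors and 25.2% of all 32851. Enpp6 and Mag held 1 match each and Neu4 none. Mobp held 6, and 5 or more were found in 0.0259% of all genes. A match describes letters and says nothing of binding.

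Of 2084 genes of at least 100 CPM, 132 were highest in oligodendrocytes in all 4 libraries, list genes included, and 102 of these were outside the lists. Of the 132, 9 stood at least 10 times above every other type, most of them list genes. The strongest outside the lists was Bcas1os2, an RNA antisense to Bcas1, at 733 ± 153 CPM (SD, n = 4) and 29.4 times the next type. Whether the counting kept strands apart is not given in the sources used here, so reads of Bcas1 and its antisense partner may not be separable. It was followed by Inava (11.5 times) and by 3 further antisense RNAs, 9630013A20Rik, Gm45025 and Gm42948. Opcml, a GPI-anchored adhesion molecule, was at 6217 ± 943 CPM (SD, n = 4), 3.63 times the next type. Nfasc, the cell adhesion molecule neurofascin found where glia meet axons, was 3.65 times as high. Prkcq, Sh3gl3, Kcnip3, Vxn, Ptpro, Armh4, Dnm3 and Arhgef3 completed the 15 strongest, at 2.5 to 3.72 times the next type.

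Other functional groups were mostly not particular to the lineage. Of 24 genes for myelin lipids and sterols, 4 were highest in oligodendrocytes in all 4 libraries, all of them of myelin lipids. These were Ugt8a, the galactosylceramide synthase (8.95 times the next type), Gal3st1, which makes sulfatide (4.69 times), Elovl7 and Fa2h. None of the sterol genes was, Lss coming closest with 1.33 times the next type and the highest level in 2 of 4 libraries. Of 22 growth factor and guidance receptors and of 26 glutamate, GABA and ion channel genes, 0 were highest here in all 4. Of the 13 genes of differentiation inhibitors, Notch and Wnt, Rnf43, an E3 ligase that limits Wnt receptors, was, at 97.6 ± 19.1 CPM (SD, n = 4) and 4.34 times the next type. Of 12 matrix genes, Sema5a, Bcan, Cspg5 and Sulf2 were. Over 13099 genes, the mean profile was about as like that of astroglia (Spearman's rho = 0.887) as those of GABA.interneuron.progenitor (0.884) and Diff.GABA.interneuron nuclei (0.881, all across genes, which are not independent and share each library's free RNA).

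Summed marker lists of other cell types were lower in oligodendrocytes than in the types they mark, though the Purkinje cell and general neuron lists still had large sums. Astroglia markers summed to 371 to 602 CPM, against 4880 CPM in astroglia themselves, and granule neuron markers to 624 to 929 CPM, against 3255 CPM in differentiated granule neurons. Microglia markers were at 136 to 149 CPM against 4508 CPM in immune cells, endothelial markers at 18.8 to 65.4 CPM, pericyte markers at 13.6 to 22.8 CPM, meningeal markers at 22.4 to 29.6 CPM and Schwann cell markers at 16.4 to 21.3 CPM. GABAergic neuron markers were at 73.3 to 167 CPM, against 2273 CPM in differentiated GABAergic interneurons. The Purkinje cell list summed to 3640 to 4254 CPM, against 23329 CPM in Purkinje cells, and the general neuron list to 3804 to 4148 CPM, against 20606 CPM in differentiated GABAergic interneurons. Both sums were above that of the myelin list, 2018 CPM on average. Map2, a microtubule-associated protein gene of the neuron list, was highest in oligodendrocytes in all 4 libraries, at 1327 ± 132 CPM (SD, n = 4). Erythroid genes, which belong to another lineage, were at 170 to 234 CPM. No marker list had a gene without any UMI.

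The nuclei spanned precursors to early myelinating cells. Each nucleus was thinned to 1500 UMIs, and its late share was the share of UMIs from the 33 premyelinating and myelin genes among those from these and the 13 OPC genes. Of the 1624 nuclei, 5 were too shallow and 1 had fewer than 5 such UMIs, which left 1618. Of these, 304 (18.8%, exact 95% interval 16.9 to 20.8%) lay in the late range, above a late share of 0.5, and 1314 in the early range. The ranges are parts of a continuum and not cell types, with 188 nuclei (11.6%) between 0.4 and 0.6. In all libraries together, 37.9% of nuclei had a late share below 0.1 and 0.68% one above 0.9. Late-range nuclei had more UMIs, with a median of 4120 against 3364.

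**Figure D2:**
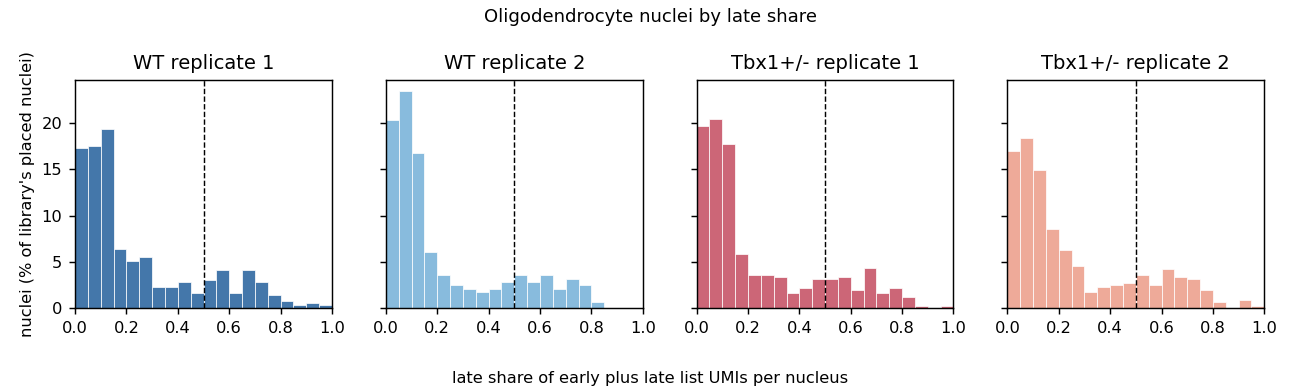
Percentage of each library's placed oligodendrocyte nuclei (vertical) by late share of list UMIs (horizontal, bins of 0.05), 1 panel per library, with the limit of 0.5 dashed. Every library has its main peak below 0.2 and a low shoulder between 0.5 and 0.8, and late-range nuclei are 17.5 to 20.4% of each.

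Because list genes placed the nuclei, their own contrast is a description. Mbp was at 3256 to 4874 CPM in the late and 98.4 to 170 CPM in the early range over the 4 libraries, and Pdgfra at 6.18 to 28 CPM and 531 to 774 CPM. Tnr, listed with the OPC genes, was higher in the late range in all 4 libraries, at 6196 ± 1296 CPM against 1814 ± 328 CPM (SD, n = 4). The whole OPC list summed to 11824 CPM on average in the late range, so Tnr lowered the late share of these nuclei. The percentages by late share depend on its place in that list, and placement without Tnr was not tested. Gpr17 differed little, at 199 ± 31.3 against 145 ± 15.2 CPM (SD, n = 4), and was higher in the late range in 3 of 4 libraries.

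Genes that had not placed the nuclei differed between the ranges too, and are again given with no test because ranges and levels come from the same nuclei. Of 13202 genes of at least 5 CPM in either range, list genes included, 12.2% were higher in the late range in all 4 libraries and 30.4% higher in the early range in all 4. Among the 17 transcription factors, 6 were higher in the late and 10 in the early range in all 4 libraries. Sox6 was among the 10, but as a gene of the OPC list it had itself placed the nuclei. St18, a zinc-finger factor, was at 2193 and 2927 CPM in the late range of the WT libraries and at 2224 and 3436 CPM in that of the Tbx1+/- libraries, against 178 to 216 CPM in the early range. The mean log2 ratio was 3.78 ± 0.25 (SD, n = 4), and every late-range value lay above every early-range value. Zeb2, which relieves inhibition of myelination, was at 1860 ± 346 against 631 ± 69.5 CPM (SD, n = 4), and Sox10 at 736 ± 36.1 against 452 ± 35.1 CPM (SD, n = 4). Sox8, Nkx2-2 and Zfp488 were also higher in the late range. Myt1 (99.4 against 369 CPM), Sox5 (278 against 792 CPM), Nfia and Nfib were higher in the early range, as was Olig2 by a small margin (102 ± 7.83 against 133 ± 25.5 CPM, SD, n = 4).

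**Figure D3:**
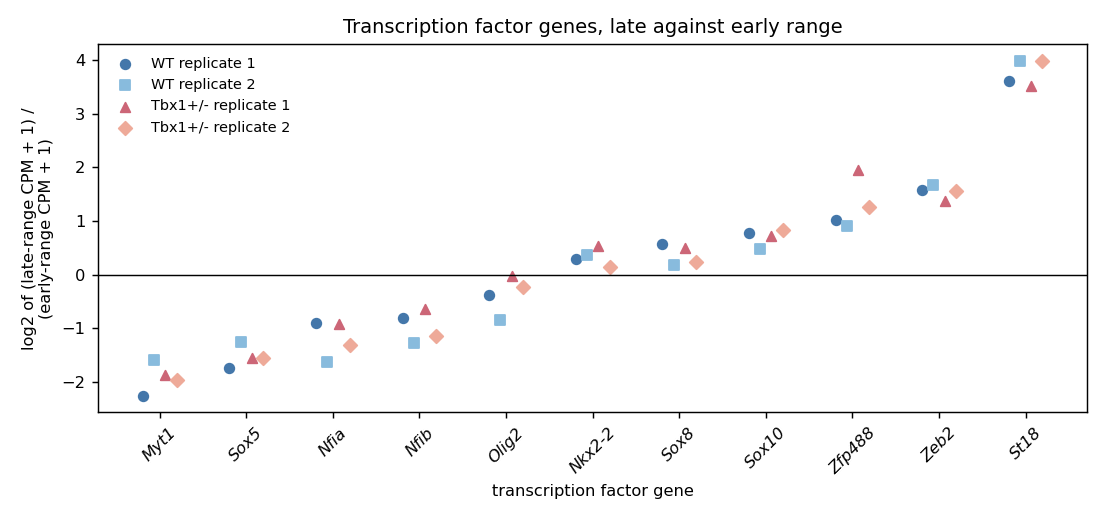
Log2 ratio of late-range to early-range level, each in CPM with 1 added, for 11 transcription factor genes (horizontal), with 1 point per library. All 4 points of St18 lie above 3.5 and all of Myt1, Sox5, Nfia and Nfib below 0, while those of Olig2 reach up to −0.02.

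Markers of other cell types also differed between the ranges. The astroglia list summed to 540 ± 109 CPM in the early and 250 ± 82.9 CPM in the late range (SD, n = 4), and 5 of its 8 genes were higher in the early range in all 4 libraries. The neuron list summed to 4215 ± 296 against 3074 ± 313 CPM (SD, n = 4), with 5 of 6 genes higher in the early range. The Purkinje cell list had the opposite order in every library as a sum, at 3789 ± 300 CPM in the early and 4438 ± 306 CPM in the late range (SD, n = 4). Gene by gene it was mixed. Of its 6 genes of at least 5 CPM, 1 was higher in the late and 2 in the early range in all 4 libraries. The part of these markers in the contrasts between ranges was not tested.

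Receptors and inhibitors were mostly lower in the late range. Of 19 receptor genes of at least 5 CPM, 15 were higher in the early range in all 4 libraries, among them Robo1, a Slit receptor (661 ± 101 against 106 ± 26.2 CPM, SD, n = 4), Ntrk3, Egfr and Plxna4. Fgfr2 and Lpar1, a lysophosphatidic acid receptor (7.29 ± 1.28 in the early and 153 ± 50.2 CPM in the late range, SD, n = 4), were higher in the late range. Of 12 genes of inhibitors, Notch and Wnt, 9 were higher in the early range, Notch1 at 58.1 ± 3.37 against 7.84 ± 5.6 CPM (SD, n = 4) and its target Hes5 at 48.2 against 14.2 CPM. Daam2, a Wnt pathway scaffold, was higher in the late range in all 4 libraries, at 23.8 against 2.45 CPM.

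Of 26 channel and transmitter receptor genes, 20 were higher in the early range, including Grm5 (583 ± 52.1 against 97.5 ± 16.9 CPM, SD, n = 4), Grin3a and Kcnd2. The metabotropic glutamate receptor gene Grm7 was among 3 with the opposite order, at 831 ± 228 CPM in the late and 193 ± 46 CPM in the early range (SD, n = 4). Of 23 lipid and sterol genes, 9 were higher in the late range. Elovl7, an elongase of very long fatty acids, was at 395 ± 126 against 23 ± 7.18 CPM (SD, n = 4) and Ugt8a at 533 ± 54.8 against 90.1 ± 14.6 CPM (SD, n = 4). Hmgcs1 of sterol synthesis was higher in the late range in all 4 libraries as well, by a mean log2 ratio of 0.54, whereas Sqle was slightly lower in all 4.

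Of 4703 genes of at least 50 CPM in either range, list genes included, 160 were at least 4 times higher in the late and 187 at least 4 times higher in the early range, by the mean log2 ratio and with the same direction in all 4 libraries. Outside all lists, the largest late-range excesses were of 1700042O10Rik, the kinase gene Cdk18 (87.1 against 0.722 CPM), Gm13187 (565 against 12.4 CPM), Ddc, Bace2, Prima1, Gm36988, Jakmip3, Parvb and the prostaglandin receptor gene Ptger1. Those of the early range were Tafa4, which was at 0 in the late range of every library, Cep55, Kcnip3, Pstpip2, Gm26871, Mmp15, Adamts9, Col19a1, Tafa1 and Pde7b. Kcnip3, one of the 15 strongest genes outside the lists, was at 352 ± 38.5 CPM in the early and 15.7 ± 11.2 CPM in the late range (SD, n = 4). Of those 15 genes, 10 were higher in the late and 4 in the early range in all 4 libraries, beside 20.4% and 37.3% of all genes of at least 50 CPM.

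Cell cycle genes were higher in early-range nuclei. Of 54 G2/M genes, 50 were higher in the early range in all 4 libraries and 0 in the late range, and the list summed to 3900 ± 523 against 1582 ± 408 CPM (SD, n = 4). Of 43 S phase genes, 30 were higher in the early range. Counting nuclei with at least 2 UMIs from all 97 genes did not separate cycling from resting nuclei, since 78.5 to 91.3% of differentiated granule neurons, which do not divide, passed that limit beside 99.3 to 99.9% of GNPs. By this count, 86.1 to 95.3% of early-range and 74 to 93.1% of late-range nuclei passed. The early range exceeded the late range by 6.63 percentage points on average and in 4 of 4 libraries (exact permutation test of sign changes, two-sided, p = 0.12, the smallest that 4 pairs allow). Without thinning, 97.8 to 100% of early-range and 98 to 100% of late-range nuclei passed, so that the measure was saturated and its difference of −0.49 points gives no direction. At 2500 UMIs the difference was negative in WT replicate 1, and with a limit of 1 UMI in Tbx1+/- replicate 1. Late-range shares were near those of the postmitotic neurons.

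A count on 6 late cell cycle genes (Mki67, Top2a, Cenpf, Cenpe, Kif11 and Tpx2), chosen after that result was seen, had a lower background. At least 2 of their UMIs among 1500 were found in 3.33 to 6.74% of differentiated granule neurons and 50.3 to 56.8% of GNPs. In oligodendrocytes they were found in 27.2 and 22.9% of early-range nuclei of the WT libraries and in 29.5 and 23.1% of those of the Tbx1+/- libraries. In the late range the shares were 6.52 and 8% in WT and 4.17 and 2.22% in Tbx1+/- libraries, from 6, 4, 3 and 2 nuclei, and so few nuclei leave them imprecise beside the shares of differentiated granule neurons. The difference was 14.9 to 25.3 points in the 4 libraries, 20.5 on average, and is given with no test because the genes were chosen after the first count. Without thinning, 36.8 to 44% of early-range and 8 to 18.1% of late-range nuclei passed, beside 8.82 to 14.6% of differentiated granule neurons and 21.4 to 27.7% of astroglia. After thinning, 11.1 to 17.4% of astroglia passed, less than in early-range oligodendrocytes of every library.

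**Figure D4:**
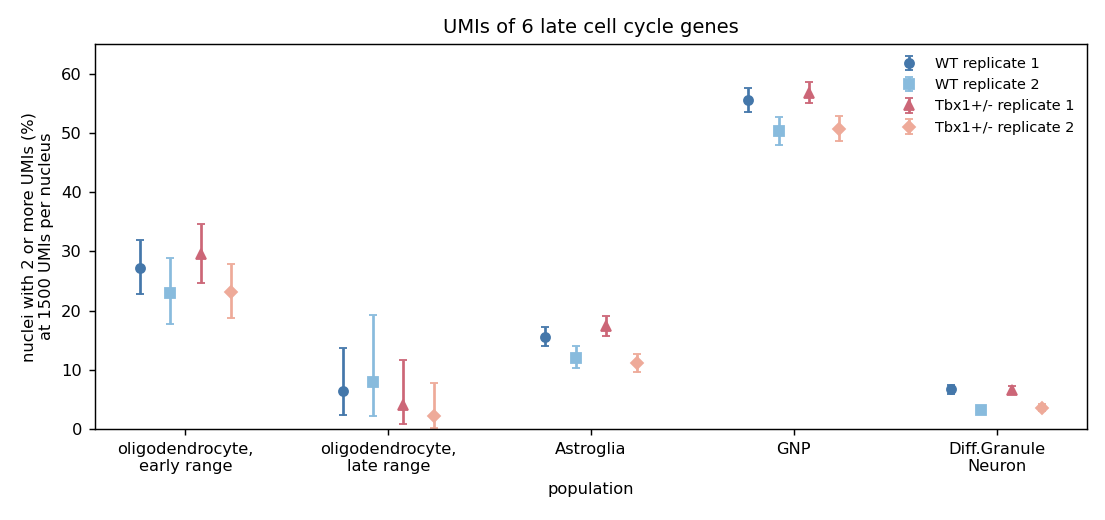
Percentage of nuclei with 2 or more UMIs of 6 late cell cycle genes after thinning to 1500 UMIs (vertical), for 5 populations, 1 point per library with its exact 95% binomial interval. Early-range oligodendrocytes sit at 22.9 to 29.5%, between GNPs and astroglia, and late-range ones at 2.22 to 8%, beside differentiated granule neurons.

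Clustering of the oligodendrocyte nuclei alone gave 11 groups along and beside this continuum. The largest, 459 nuclei, had Pdgfra, Slc22a3 and Kcnip3 among its leading genes and a median late share of 0.0789. A group of 246 led by mitotic genes (Kif18a, Cep55, Kif4) had a similar late share of 0.0769 and the highest G2/M sum, 9300 CPM. A group of 160 with Gpr17 among its 10 leading genes had a median late share of 0.32, a group of 191 with Bmp4 and Enpp6 one of 0.63, and a group of 57 led by Mobp one of 0.774. A group of 77 had Egfr among its leading genes.

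Other groups carried genes of other types. One of 34 nuclei had Pax2, Gad1 and Slc6a5 among its leading genes, with GABAergic markers at 1536 CPM against 24.9 to 127 CPM in the other 10 groups, and a median of 5176 UMIs. One of 71, of which 37 came from WT replicate 1, had Tnc and Cyp26b1 among its leading genes, with astroglia markers at 2386 CPM and a median of 6225 UMIs. One of 217 had the synaptic vesicle gene Syt1 among its leading genes, with granule neuron markers at 1772 CPM and 5457 UMIs, and one of 78 had Gli2, Ebf3 and Lhx1, with granule markers at 1685 CPM and 4575 UMIs. The group of 78 had a median late share of 0.109 and a G2/M sum of 6029 CPM, and its part in the cell cycle contrast between ranges was not tested. The part of doublets in these groups was not tested. The remaining group, of 34 nuclei, had the lowest median, 2177 UMIs, Pecam1 among its leading genes and endothelial markers at 162 CPM, against 15.5 to 51.4 CPM in the other 10 groups.

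The comparison of genotypes asked whether Tbx1 haploinsufficiency altered these cells. Tbx1 itself had 0 UMIs in oligodendrocytes of all 4 libraries, of 6554629 UMIs in all, which allows a level of up to 0.458 CPM, so its dosage cannot be checked in these nuclei. Oligodendrocytes were 3.97% and 3.08% of annotated nuclei in the WT and 2.99% and 3.4% in the Tbx1+/- libraries. The genotypes overlapped, and the log2 change of −0.14 (SE 0.22) was within the spread between libraries (edgeR quasi-likelihood test, adjusted p = 0.976). Set against 100 astroglia, there were 23.8 and 22.9 oligodendrocytes in the WT and 20.5 and 23.8 in the Tbx1+/- libraries.

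Whether the stage of the nuclei differed between genotypes depended on the setting, and 2 against 2 libraries allow no p below 0.333. Late-range nuclei were 19 and 17.8% in the WT and 17.5 and 20.4% in the Tbx1+/- libraries, a difference of 0.58 percentage points (exact permutation test, two-sided, p = 1). Thinning leaves out nuclei with fewer UMIs than the depth, so that at 2500 UMIs a smaller set of deeper nuclei was compared. In that set, the shares were 20.9 and 19.5% in WT against 23.4 and 25% in Tbx1+/- libraries, and the genotypes did not overlap (difference 4.01 points, exact permutation test, two-sided, p = 0.333). At a late share limit of 0.3 they did not overlap either, at 28.7 and 27.4% against 29 and 30.2% (exact permutation test, two-sided, p = 0.333), whereas at 1000 UMIs and at a limit of 0.7 they did. The log2 ratio of late to early list UMIs over all nuclei was −1.15 and −1.27 in the WT and −1.27 and −1.0 in the Tbx1+/- libraries, a difference of 0.07 (exact permutation test, two-sided, p = 0.667), and in nuclei with at least 2000 detected genes the difference was 0.16 (p = 0.333 in the same exact test). Within batch 1 the difference in late-range share was −1.45 points and within batch 2 it was 2.61 points. The sign within batch 1 depended on the setting, being positive at 2500 UMIs and at a late share limit of 0.3.

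Of 12354 genes tested, 0 were called (0%) at an adjusted p under 0.05 and a change above 1.5-fold (edgeR quasi-likelihood test, genotype as the only term). At an unadjusted p under 0.05 there were 167 (1.35%). DESeq2 also called 0, with 8 genes at an unadjusted p under 0.05. With no filter on low counts, 1 gene (0.00456%) was called, Ttr, higher in Tbx1+/- libraries. In simulated data of this comparison, edgeR recovered 26.5% of the 200 genes given a log2 change of 1, and DESeq2 7.5%, so changes of that size could often be missed, more so by DESeq2. With the replicate number as a block, which stands for the batch, 2 genes were called (0.0162%), Ttr and Nkain2, both higher in Tbx1+/- libraries, and 4.37% of genes had an unadjusted p under 0.05.

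None of the lineage genes named by rule was called in either fit. Sox10 was at 488 and 543 CPM in WT against 494 and 526 CPM in Tbx1+/- libraries, with a log2 change of 0.00 (SE 0.24). Olig2 was at 127 and 151 CPM against 103 and 126 CPM, and although the genotypes did not overlap, the change of −0.25 (SE 0.22) was not called (edgeR, adjusted p = 1). The log2 changes of Pdgfra, Gpr17, Bcas1 and Mbp were 0.22 (SE 0.27), 0.06 (SE 0.20), 0.03 (SE 0.31) and 0.18 (SE 0.35). That of Sox6 was −0.02 (SE 0.37). Of the whole lists, 0 of 13 OPC, 0 of 13 premyelinating and 0 of 11 tested myelin genes had an unadjusted p under 0.05, and their median log2 changes were 0.05, 0.12 and 0.20 beside 0.00 over all genes. With the block, 1, 1 and 3 of them had an unadjusted p under 0.05, all higher in Tbx1+/- libraries. Of all 12354 genes, 286 were higher and 254 lower at that limit, 4.37% in both directions together. Of the premyelinating genes 12 of 13, of the tested myelin genes 10 of 11 and of the OPC genes 9 of 13 had a positive log2 change, beside 6223 of all 12354 genes. These counts were not tested. The value of Mbp moved with 1 library, being −0.30 without Tbx1+/- replicate 2.

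Ttr, which encodes the thyroid hormone carrier transthyretin and is the most abundant product of choroid plexus epithelium, was at 51.6 and 46.5 CPM in the WT and at 91.1 and 209 CPM in the Tbx1+/- libraries. Both Tbx1+/- libraries were above both WT libraries, and Tbx1+/- replicate 2 was highest. The log2 change was 1.65 (SE 0.35, edgeR, adjusted p = 1) without and 1.53 (SE 0.16, adjusted p = 2.84e-17) with the block. Within batch 1 its log2 ratio in oligodendrocytes was 0.82 and within batch 2 it was 2.17. The SE and the adjusted p with the block do not measure that spread between 2 pairs. Ttr differed in the same direction in all 15 other types, by a log2 ratio of means of 1.17 to 1.94 (median 1.53), and was at 1343 to 4287 CPM in RL.early nuclei. It was higher in both batches in 14 of these types, and in pericytes WT replicate 1 had 0 UMIs. The choroid plexus list summed to 57.6 to 219 CPM in oligodendrocytes, most of it Ttr, and its other 4 genes did not pass the filter on low counts. The 5 erythroid genes, of another foreign cell type, were all higher in oligodendrocytes of Tbx1+/- libraries, with a median log2 change of 0.42, and their sum was 170 and 181 CPM in WT against 216 and 234 CPM in Tbx1+/- libraries. None was called, and 2 had an unadjusted p under 0.05 with the block. Other types varied in the erythroid sum. In astroglia it was 211 and 206 CPM in WT against 222 and 293 CPM in Tbx1+/- libraries. The genotypes overlapped in differentiated granule neurons (350 and 206 against 238 and 295 CPM) and in GNPs (299 and 250 against 285 and 366 CPM). The part of free RNA in these differences was not tested.

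**Figure D5:**
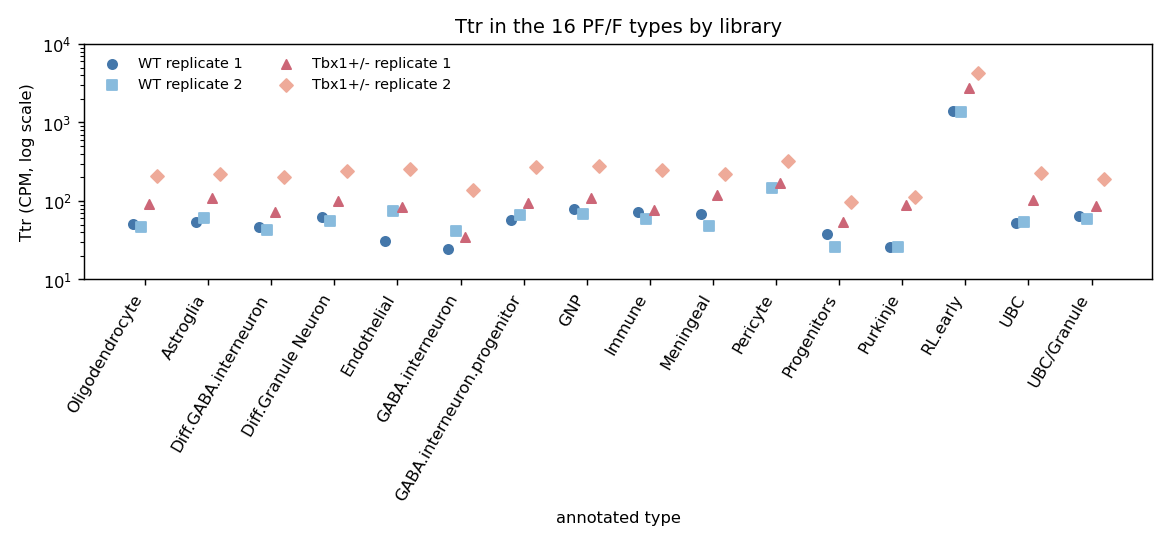
Ttr level in CPM on a log scale (vertical) in the 16 annotated types (horizontal), with 1 point per library, a library at 0 (WT replicate 1 in pericytes) being left out. In oligodendrocytes the Tbx1+/- libraries sit at 91.1 and 209 and the WT libraries at 51.6 and 46.5, and Tbx1+/- replicate 2 is the highest in every type.

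Nkain2, which encodes a protein that interacts with a subunit of the sodium pump, was at 459 and 614 CPM in the WT and at 499 and 1248 CPM in the Tbx1+/- libraries. The genotypes overlapped, and Tbx1+/- replicate 2 alone stood apart. Its log2 change was 0.73 (SE 0.40, edgeR, adjusted p = 1) without and 0.61 (SE 0.13, adjusted p = 0.0356) with the block, and −0.11 without Tbx1+/- replicate 2. Within batch 1 its log2 ratio was 0.12 and within batch 2 it was 1.02, a spread that the SE and the adjusted p with the block do not measure. Nkain2 was 18 times higher in the late than in the early range, at 2694 ± 1230 against 150 ± 48.6 CPM (SD, n = 4), and was a leading gene of the Mobp group. That group held 2.47 and 3.55% of the nuclei in the WT and 2.66 and 5.43% in the Tbx1+/- libraries. Its part in the call was not tested. Ptgds, a prostaglandin D synthase of meninges and oligodendrocytes, was at 39.6 and 5.52 CPM in the WT and at 63.7 and 14.9 CPM in the Tbx1+/- libraries, with the batches further apart than the genotypes and a log2 change of 0.63 (SE 0.67, edgeR, adjusted p = 1). With all libraries summed, Ptgds was at 30.4 CPM in oligodendrocytes, 34 in astroglia, 33.9 in differentiated granule neurons and 1406 in meningeal cells. Its log2 ratio of genotype means was 0.80, 0.71, 0.82 and 0.79 in these types, and −0.31 in Progenitors nuclei. The part of free RNA in the level of Ptgds was not tested.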

How the data were processed

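Nuclei of the PF/F were profiled in 4 libraries, 2 WT and 2 Tbx1+/-, of 5 pooled mice each. The authors deposited raw UMI counts for every gene in each barcode, and their processing notes name Cell Ranger 7.0.0 and mm10. These counts lack the correction for free RNA (SoupX) that the study applied later and that needs the empty droplets. The annotation the authors deposited holds the corrected UMIs of each nucleus, expected counts used here only for their ratio to the raw counts, and the cell type labels, matched by library and barcode. The PTB libraries were not used, and no doublet caller was run.

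UMIs were summed per library and type, and the sums were tested for genotype by the quasi-likelihood test of edgeR 4.0.16 after filterByExpr and TMM scaling, with Benjamini-Hochberg adjustment, and by DESeq2 1.42.0, in R 4.3.3. Standard errors of edgeR were derived from the F statistic (log2 change over the root of F). Nuclei per type were tested alike, with all annotated nuclei as offset and a false discovery rate of 0.1. DCATS was not run, and the study tested nuclei rather than library sums. The gene test was run on simulated data with known changes. Libraries of the same replicate number form a batch in the study's methods, and the deviations of replicates 1 from their genotype means had a correlation across 12354 genes of 0.3145. The numbers were taken as pairs only in the block fits and in the comparisons within batches. The main fits and the permutation tests between genotypes used genotype alone, so the spread between batches is part of their error. Ranges used Python 3.11.15, scipy 1.17.1 and pandas 2.3.3, and clusters scanpy 1.11.5 and leidenalg 0.10.2. Log ratios between ranges have 1 CPM added. Gene coordinates are GENCODE vM21 on GRCm38, and sequences are RefSeq's. Intervals at 95% and the limit for 0 UMIs (3 counts) cover counting error only.

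The oligodendrocyte nuclei, the lists and the tests were chosen with earlier results of these data known. Genes were named by a rule. From each list came those with the largest ratio to the next type, and in any case 12 defining genes. Outside the lists came 15 genes of at least 100 CPM, highest in oligodendrocytes in all 4 libraries, by that ratio, and 10 genes per range by the log2 ratio. For genotype came up to 5 called genes per direction and fit, with Tbx1, Ttr, Ptgds and 7 lineage genes in any case, and a few genes the rule names are not reported here. List genes named in the range contrast for their function were chosen after their values were seen. Alternatives were RLE factors, no filter, DESeq2, the block, nuclei with at least 2000 genes, without the 8% of nuclei with the most UMIs, early-range nuclei only, other thinning depths and limits, and leaving out each library, after which the lone library of its genotype is assumed to vary like the other genotype.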

Additional observations from a re-analysis of the deposited data

How the results depend on the processing

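The change in the share of oligodendrocytes was not called under any alternative with a test, and its log2 changes lay between −0.20 and −0.08. Without 1 library it ranged from −0.311 to 0.0533, the positive value arising without WT replicate 1. With the replicate block, the change was −0.13.

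The count of called genes, 0, was also 0 with RLE factors, with DESeq2, with nuclei of at least 2000 genes, without the 8% of nuclei with the most UMIs and in early-range nuclei only. It was 1 (Ttr) without a filter and 2 with the replicate block (Ttr and Nkain2). Without 1 library it ranged from 0 to 7, with 7 (Ttr, Ptgds, Mobp, Map7, Rnf220, Lamtor1 and Hist1h4h, all higher) without WT replicate 1, 3 without WT replicate 2, 1 without Tbx1+/- replicate 1 and 0 without Tbx1+/- replicate 2. The cause was not tested.

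Of the 110 values of 10 named genes under 11 alternatives, 83 kept direction and side of the threshold, 20 changed direction and 7 passed the threshold, and the block changed no call but those of Ttr and Nkain2. Sox6 was at 0.0135 with the replicate block and 0.00498 in early-range nuclei. Sox10 was at −0.0764 with at least 2000 genes, −0.0157 without the top 8% and −0.0674 in early-range nuclei, Gpr17 at −0.0288 without the top 8% and Bcas1 at −0.0298 with at least 2000 genes. Leaving out 1 library gave −0.32 to 0.35 for Sox6, −0.11 to 0.48 for Pdgfra, −0.10 to 0.11 for Sox10, −0.0452 to 0.13 for Gpr17, −0.20 to 0.29 for Bcas1, −0.30 to 0.53 for Mbp, 0.88 to 2.12 for Ttr, −0.66 to 2.71 for Ptgds and −0.11 to 1.25 for Nkain2.

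The difference in late-range share was −0.00493 points without the top 8%, −0.17 at 1000 and 4.01 at 2500 UMIs per nucleus, −0.19 at a limit of 0.7 and 1.53 at 0.3, 1.29 with at least 2000 genes, 1.07 without Mbp in the list, −1.45 within batch 1 and 2.61 within batch 2, and −0.86 to 2.03 without 1 library. By clusters the measure was another one, the share of nuclei in clusters with more late than early list genes among their 10 leading genes. These took in the group of 160 nuclei with a median late share of 0.32. Their share was 23.3 and 25.2% in the WT and 21.7 and 30.3% in the Tbx1+/- libraries, a difference of 1.81 points. The log2 list ratio differed by 0.16 with at least 2000 genes, −0.12 within batch 1 and 0.27 within batch 2, and by −0.059 to 0.21 without 1 library. The difference between ranges in nuclei with cell cycle UMIs was 14.9 points at 1000 and 2.58 at 2500 UMIs per nucleus, and −0.49 without thinning (saturated). It was 0.888 at 1 or more and 16.7 at 3 or more UMIs, 20.5 with 6 genes (chosen after seeing the data) and 4.79 to 8.1 without 1 library. The cause of these shifts was not tested. The late range held 50 to 92 nuclei per library.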
